A study of Mus musculus with 24 samples.

Results

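Cirbp and Rbm3 encode the classic cold-inducible RNA-binding proteins of mammals. Both were found by gene symbol in the deposited tables, where they are 2 of 43629 gene identifiers, each listed once per library. Their mRNA was measured in liver of wild-type mice of the inbred strain C57BL/6 by strand-specific RNA sequencing after oligo-dT selection. Young mice were about 4 months old and old mice about 19 months old, with no treatment or transgene named for either age. Tissue was sampled every 4 h over the day, at ZT2, ZT6, ZT10, ZT14, ZT18 and ZT22, where ZT (zeitgeber time) counts the hours from lights on. Each age and time had 2 libraries, so there were 12 per age and 24 in all. The labels do not say whether replicate libraries came from separate animals, so p-values here measure only the spread between these libraries, which may be technical. The labels also give no light schedule, and light (ZT2 to ZT10) and dark (ZT14 to ZT22) are used here for the usual cycle with lights off at ZT12.

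CIRBP and RBM3 are small proteins with a single RNA recognition motif followed by a glycine-rich tail. Their levels rise when cells are cooled mildly and fall when cells are warmed, which is opposite to the heat shock chaperones. The daily swing of body temperature is known to drive a rhythm of Cirbp mRNA in cultured cells and in liver, and CIRBP binds transcripts of core clock genes, Clock among them. Both proteins also act on the choice of polyadenylation sites. Temperature acts on Cirbp partly through the splicing efficiency of its pre-mRNA, and the CLK kinases that phosphorylate SR splicing proteins respond to small changes of temperature.

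Cirbp (ENSMUSG00000045193) lies on chromosome 10 from 80165985 to 80172786 on the plus strand of GRCm38, the build of the deposited tables per the submitters' processing notes. GENCODE M21 lists 7 transcripts of it, of which 2 are protein-coding, 1 is a target of nonsense-mediated decay and 4 retain introns. Rbm3 (ENSMUSG00000031167) lies on chromosome X from 8138975 to 8145880 on the minus strand. It has 11 listed transcripts, of which 6 are protein-coding, 2 are targets of nonsense-mediated decay, 2 retain introns and 1 is processed. The deposited values are per gene, so productive and intron-retaining transcripts cannot be told apart in them.

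The region upstream of Cirbp is shown because the daily rhythm described below is that of a gene with reported promoter elements. This RefSeq window (GRCm38.p6, chr10:80167589-80167888, plus strand) runs from 250 bases before to 50 bases after an annotated start. Capitals mark the GC box GGGCGG on either strand, the motif bound by SP1-family factors.
Cirbp promoter: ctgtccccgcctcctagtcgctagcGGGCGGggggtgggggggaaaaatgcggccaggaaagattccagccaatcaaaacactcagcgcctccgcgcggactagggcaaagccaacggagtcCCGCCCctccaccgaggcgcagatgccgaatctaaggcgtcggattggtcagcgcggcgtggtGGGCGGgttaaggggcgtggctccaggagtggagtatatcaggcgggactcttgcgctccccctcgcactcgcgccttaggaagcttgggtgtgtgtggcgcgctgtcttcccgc

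The window is rich in G and C, at 65.7% against a median of 52.7% over 32851 promoter windows of the same length. GC boxes begin 225, 128 and 65 bases before the start, the middle one on the opposite strand, and 35.7% of all windows hold at least 1. The letters TCCCCGCC, reported as a mild-cold response element of Cirbp, begin 247 bases before the start and are in 5.38% of windows on either strand. CCAAT occurs at 181 bases before the start and, on the opposite strand, at 85, and 37.4% of windows hold it. None of these matches overlap each other. The E-box CACGTG and the paired heat shock half-sites GAANNTTC were searched on both strands and are not in this window, while 7.15% and 7.86% of windows hold them. A match describes letters only, and binding was not measured. A second RefSeq window of Cirbp, around a start further downstream (chromosome 10, 80167921 to 80168220), has a GC content of 70% and 4 GC boxes, and holds no match to the other 4 motifs. No promoter window of Rbm3 was used here.

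Rbm3 has a close copy in the genome that bears on how its reads are counted. The pseudogene Gm15453 (chromosome 1, 150265535 to 150265999, minus strand), called Rbm3-ps in GENCODE M21, is 465 bases long. Of these, 462 match an Rbm3 transcript, an identity of 99.4% with 0 gaps. The substitutions are T198C, T315C and G316A, with the Rbm3 base first and positions counted from 1 at the 5′ end of the pseudogene transcript. A stretch of 60 bases around the last 2, at positions 285 to 344, is shown with the differing bases in capitals.
Rbm3: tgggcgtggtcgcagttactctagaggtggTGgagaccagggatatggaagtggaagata
Gm15453: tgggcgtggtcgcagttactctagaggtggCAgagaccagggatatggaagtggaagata

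Of the 416 possible reads of 50 bases from Gm15453, 315 (75.7%) also occur in Rbm3 transcripts without a mismatch. The levels of Rbm3 are therefore uncertain by the reads that the authors' counting may have placed on the copy, and each Rbm3 call was repeated with the TPM of both added. The antisense gene Rbm3os was at 0 in both replicates of 10 of the 12 groups and at most 0.582 scaled TPM. No such close copy was examined for Cirbp.

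Mapped depth was 8.70 to 13.7 M reads of 50 bases per library, and tests ran over the 12261 genes that averaged 1 TPM (the share of a transcript among all, corrected for length) or more. Values printed are TPM scaled between libraries and are called scaled TPM. Summed markers of hepatocytes, the main liver cell, were at 70750 to 100700 scaled TPM in young and 75500 to 102600 in old. 2 libraries stand apart: young ZT18 replicate 2 held pancreatic acinar markers summing to 3037 scaled TPM, and old ZT14 replicate 1 had a mitochondrial share of 3.42% against a median of 13.0%. The limma tests of the members over the day, at each time, for dark against light and for rhythm, the steps from ZT2 to ZT6 and ZT10 to ZT14, the correlation of the members and the list counts were repeated without both. Whether the counting used the strand is not given in the sources used here.

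Cirbp was expressed at an intermediate level, and its mRNA was on average higher in the light than in the dark at both ages. In young this did not hold for each time, as the ZT22 mean of 12.8 scaled TPM was above the ZT2 mean of 11.3. The mean of Cirbp was 12.3 ± 6.22 scaled TPM in young and 12.5 ± 4.80 in old (SD over 12 libraries, which includes the daily change), at the 57.7th percentile of the tested genes. In young liver it was at 11.8 and 10.8 scaled TPM at ZT2, 22.4 and 14.98 at ZT6, 22.1 and 17.5 at ZT10, 5.46 and 5.12 at ZT14, 6.21 and 5.98 at ZT18, and 15.6 and 10.1 at ZT22 (replicates 1 and 2). The 4 libraries of ZT14 and ZT18 were the lowest of the young, below all 8 others, and those of ZT6 and ZT10 were high. In old liver it was at 13.2 and 17.2 at ZT2, 21.1 and 17.05 at ZT6, 17.9 and 12.5 at ZT10, 8.89 and 7.76 at ZT14, 10.03 and 5.32 at ZT18, and 10.9 and 8.89 at ZT22. All 6 old libraries of the light were above all 6 of the dark. For these separations, and for the gaps between times given below for both genes, no share over all genes is given. They describe these libraries only.

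Ordered by group mean in young, Cirbp ran from ZT10 over ZT6, ZT22, ZT2 and ZT18 to ZT14, from 19.8 down to 5.29 scaled TPM, a 3.73-fold range. Neighbours in that order overlapped from ZT10 to ZT2, and the libraries of ZT2, ZT18 and ZT14 were apart from one another. In old the order was ZT6, ZT2, ZT10, ZT22, ZT14 and ZT18, from 19.1 to 7.67, a 2.48-fold range. There the single gap was between ZT10 and ZT22. Replicate 1 was above replicate 2 in 11 of the 12 groups, at 6 of 6 times in young and 5 of 6 in old, and what the replicate number marks is not given. The median ratio between the replicates of a group was 1.18 in young and 1.27 in old, and the widest was 1.89 at old ZT18.

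**Figure D1:**
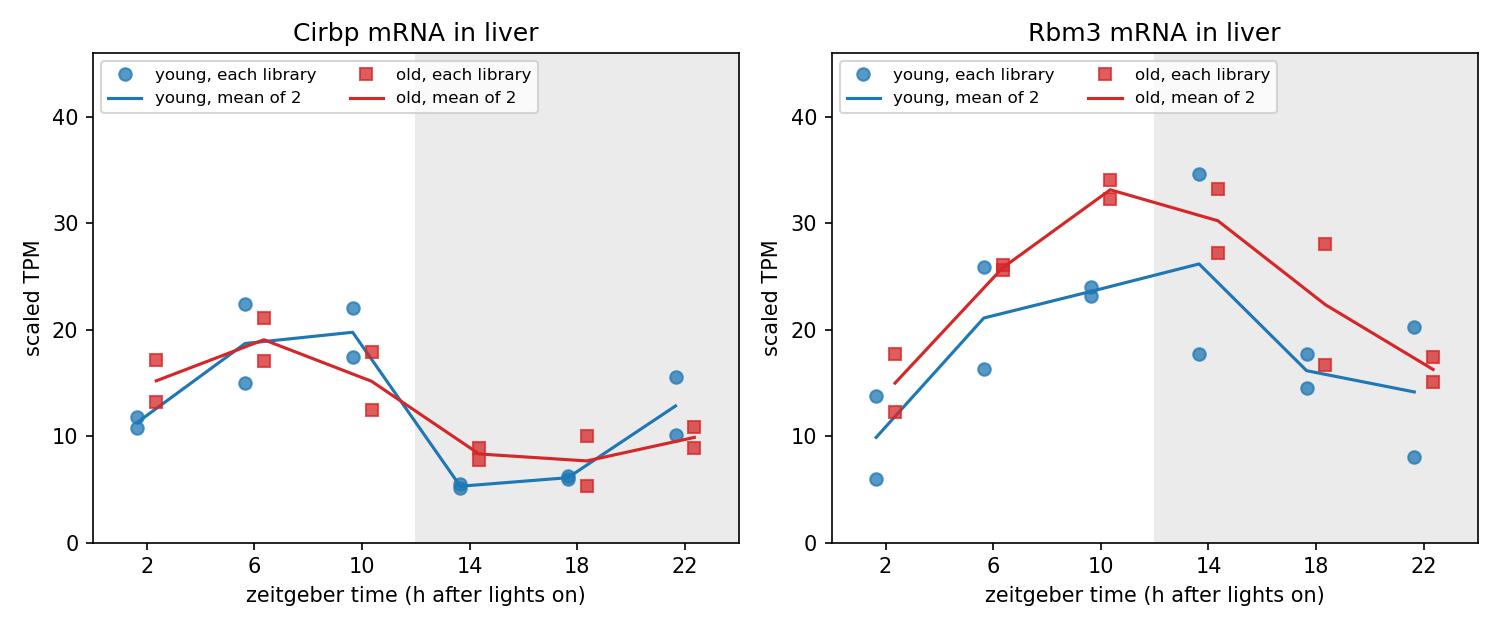
Scaled TPM of Cirbp (left) and Rbm3 (right) against zeitgeber time in hours, with 1 point per library and a line through the mean of 2 libraries, for young (blue circles) and old (red squares); grey marks the usual dark phase. Cirbp falls between ZT10 and ZT14, to 5.12 and 5.46 in young, while Rbm3 is highest at ZT10 and ZT14 at both ages.

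Rbm3 was the more abundant of the pair per transcript length, and its mRNA was highest around the change from light to dark. Its mean was 18.5 ± 7.88 scaled TPM in young and 23.8 ± 7.63 in old (SD over 12 libraries), at the 70.6th percentile of the tested genes. In young liver it was at 5.98 and 13.8 scaled TPM at ZT2, 25.9 and 16.3 at ZT6, 24.04 and 23.2 at ZT10, 34.7 and 17.7 at ZT14, 14.5 and 17.8 at ZT18, and 20.3 and 8.01 at ZT22. The young replicates were far apart at ZT2, ZT14 and ZT22, by up to 2.53 times, and each pair of neighbours in the order of levels (ZT14, ZT10, ZT6, ZT18, ZT22, ZT2) overlapped. In old liver it was at 12.3 and 17.7 at ZT2, 25.6 and 26.1 at ZT6, 34.03 and 32.3 at ZT10, 33.2 and 27.3 at ZT14, 28.0 and 16.7 at ZT18, and 17.5 and 15.1 at ZT22. The old order was ZT10, ZT14, ZT6, ZT18, ZT22 and ZT2, with both libraries of ZT14 above both of ZT6 and overlap between all other neighbours. The group means spanned 2.65-fold in young and 2.21-fold in old.

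The reads behind these values were few. From the deposited coverage and the length of all annotated exons, Cirbp rested on about 16.7 to 107 reads per library (median 49.5) and Rbm3 on about 76.8 to 440 (median 198). The lowest of the Cirbp estimates was young ZT14 replicate 1. These are estimates from coverage, since the files hold no read counts. The ratio of coverage to FPKM also varied between libraries, from 17.6% to 29.4% of its largest value in the library for Cirbp and from 25.7% to 37.9% for Rbm3. For Cirbp it was lowest in both old ZT14 libraries and in young ZT14 replicate 1, at 17.6%, 18.1% and 19.0%. The limma tests of the members were therefore repeated on coverage, an alternative chosen after seeing the data.

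A cosine with a period of 24 h, fitted to the log2 values of each age, described the time course of each gene by an amplitude (fitted peak minus trough) and a peak hour. Cirbp was rhythmic in young, with an amplitude of log2 1.58 (SE 0.315) and a peak at ZT5.44 ± 0.764 h (SE; limma adjusted p = 0.00651). In old the amplitude was 1.35 (SE 0.315), the peak was at ZT5.60 ± 0.892 h and the adjusted p was 0.0215 by limma. Across all tested genes, 10.7% passed this test in young and 8.96% in old. Over both ages together the amplitude was 1.46 and the peak ZT5.51 (limma adjusted p = 0.000185), which 23.9% of genes passed. That amplitude stood at the 97th percentile, against a median of 0.36 over all genes. The old call was lost without old ZT6 replicate 1 (limma adjusted p = 0.0713) and without old ZT18 replicate 2 (0.0864), and the young call and the call over both ages held without any single library.

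Rbm3 was rhythmic over both ages together, with an amplitude of log2 1.24 (SE 0.227) and a peak at ZT11.7 ± 0.701 h (limma adjusted p = 0.00129), at the 95th percentile of amplitudes. Within young its amplitude was 1.30 (SE 0.321) with a peak at ZT11.8 ± 0.942 h (limma adjusted p = 0.0285). Within old it was 1.17 (SE 0.321) with a peak at ZT11.5 ± 1.04 h, and the limma adjusted p of 0.0566 missed the threshold of 0.05. The calls within an age rested on single libraries. The young call was lost without ZT2 replicate 1 (limma adjusted p = 0.0762), ZT10 replicate 1 (0.0583), ZT10 replicate 2 (0.0529), ZT14 replicate 1 (0.0831) or ZT22 replicate 2 (0.0685). The old value passed in 3 of 24 such fits, without young ZT2 replicate 1 (limma adjusted p = 0.0239), ZT6 replicate 1 (0.0457) or ZT22 replicate 1 (0.0258). It passed also with the TPM of Gm15453 added (amplitude 1.22, limma adjusted p = 0.0259). TPM is corrected for length, so this sum gives the short copy more weight than adding its reads would.

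The shape of the daily curve did not pass a test of difference between young and old for either gene. For Cirbp the old minus young log2 amplitude was -0.23 and the peak hour 0.160 h later in old (adjusted p = 0.9999 by limma). For Rbm3 the old minus young amplitude was -0.13 and the peak difference -0.396 h (adjusted p = 0.9999 by limma). No gene in the table passed that test (0%) by limma at the adjusted threshold, and 430 (3.51%) had an unadjusted p under 0.05. With 2 libraries per group, these p-values do not show that the curves are alike.

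Without a shape assumed, an F test of differences among the 6 times also called Cirbp in young (largest difference log2 1.80, limma adjusted p = 0.00231; 6.86% of genes called). The old value was 1.31 with a limma adjusted p of 0.0369 (5.65% of genes called). That old call was lost in 17 of 24 fits without a single library, 10 of them lacking an old and 7 a young library, with adjusted p from 0.0139 to 0.112 over the 24. Rbm3 missed the threshold in young (limma adjusted p = 0.222) and in old (0.383). The F test of a change of the age difference over times gave a limma p of 0.147 for Cirbp and 0.988 for Rbm3, and an adjusted p of 1 for each.

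The contrast of dark with light separated the pair. Cirbp was lower in the dark by log2 -1.05 in young (SE 0.166, interval -1.41 to -0.70 at 95%, limma adjusted p = 0.00144) and by -0.90 in old (-1.26 to -0.55, adjusted p = 0.00532). In the table as a whole 3.38% of genes fell in the dark in young and 1.89% in old. Both calls held without any single library. Rbm3 differed by 0.06 in young (interval -0.46 to 0.59, limma adjusted p = 0.905) and by -0.08 in old (-0.61 to 0.44, 0.93). Its direction turned in young with unscaled TPM (-0.087) or FPKM (-0.0076) and in old with coverage (0.10). With its peak near ZT12, Rbm3 has a rising and a falling part of its curve on opposite sides of this contrast.

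The sharpest single change was the fall of Cirbp from ZT10 to ZT14 in young, by log2 -1.80 (SE 0.287, limma adjusted p = 0.00298), from 22.1 and 17.5 to 5.46 and 5.12 scaled TPM. Such a fall passed in 1.52% of genes. It missed the threshold without young ZT10 replicate 1 (-1.63, limma adjusted p = 0.057). In old the same step was -0.81 (limma adjusted p = 0.207), and on deposited coverage it was -1.34 with an adjusted p of 0.0267. No other 4 h step of Cirbp passed in either age, and none of Rbm3. The step from ZT18 back up to ZT22 in young was 0.98 for Cirbp (limma adjusted p = 0.389). For Rbm3 the widest step was from ZT2 to ZT6 in young, 1.13 (limma adjusted p = 0.51).

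The fitted peak of Rbm3 came after that of Cirbp by 6.41 h in young, 5.85 h in old and 6.15 h over both ages. Over the 24 fits without a library and the other settings, the gap over both ages was 5.47 to 6.97 h. Across the libraries of an age, no correlation between the members passed a test. In young, log2 values of Cirbp and Rbm3 had a Pearson r of 0.0967 (permutation p = 0.764) and a Spearman rho of 0.273 (permutation p = 0.389) over 12 libraries. Leaving out the 2 libraries farthest from the median of Cirbp gave r = 0.462. In old, r was 0.199 (permutation p = 0.532), rho was 0.182 (permutation p = 0.573), and r without 2 libraries was -0.00741. Adjusted over the 2 ages, the Pearson p was 0.764 and the Spearman p 0.573 for both.

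Shifting the Cirbp group means later by 4 h and 8 h brought the time courses together. Over the 6 times, the correlation between the shifted Cirbp and Rbm3 means was 0.493 and 0.718 in young and 0.854 and 0.822 in old, against -0.00135 and 0.0488 with no shift. These rest on 6 points with 2 libraries each and are a description. Within groups, the differences between replicates of the pair went together, with r = 0.59 over the 12 groups.

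The balance of the pair changed over the day. In unscaled TPM, where library scaling cancels, Rbm3 was above Cirbp in 21 of 24 libraries. In young the ratio of Rbm3 to Cirbp was 0.506 and 1.28 at ZT2, 1.09 to 1.15 at ZT6, 1.09 to 1.33 at ZT10, 3.45 and 6.35 at ZT14, 2.34 to 2.97 at ZT18, and 0.795 to 1.30 at ZT22. In old it was 0.927 to 1.03 at ZT2, 1.21 to 1.53 at ZT6, 1.91 to 2.59 at ZT10, 3.51 to 3.74 at ZT14, 2.79 to 3.14 at ZT18, and 1.60 to 1.70 at ZT22. At both ages every library of ZT14 and ZT18 had a higher ratio than every other library of that age.

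A cosine was also fitted to the log2 ratio, taken as log2(scaled TPM + 0.5) of Rbm3 minus that of Cirbp. With the added 0.5, library scaling does not cancel fully in it. The amplitude was 2.15 with a peak at ZT15.0 in young and 1.76 with a peak at ZT14.8 in old. Permuting the times within an age 100000 times gave p = 0.00366 in young and p = 1e-05 in old, the smallest these permutations can give. Adjusted over the 2 ages they were 0.00366 and 2e-05. This test was chosen after the separate rhythms were seen and adds no independent evidence of them. The ratio also carries the pseudogene uncertainty of Rbm3.

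**Figure D2:**
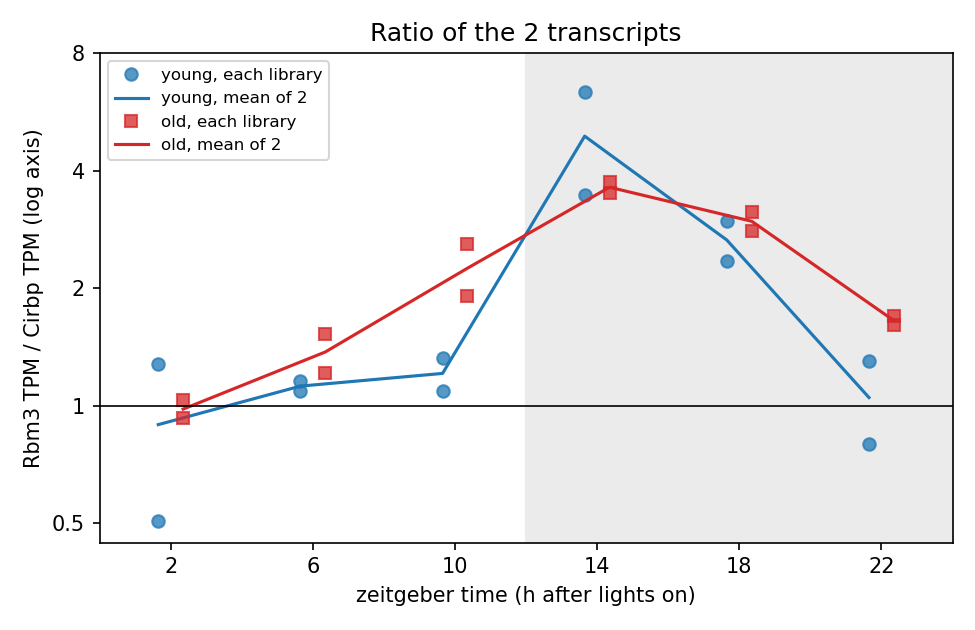
Ratio of Rbm3 TPM to Cirbp TPM (log axis) against zeitgeber time in hours, with 1 point per library and a line through the mean of 2 libraries, for young (blue circles) and old (red squares). Ratios at ZT2 lie between 0.506 and 1.28, and those at ZT14 between 3.45 and 6.35.

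Between the ages, averaged over the 6 times, Cirbp did not pass the test and Rbm3 had a higher mean in old that did not pass either. For Cirbp the old minus young log2 difference was 0.10 (SE 0.117, interval -0.15 to 0.35, limma adjusted p = 0.865). For Rbm3 it was 0.41 (SE 0.175, interval 0.04 to 0.79), with a limma p of 0.0315 that became 0.357 when adjusted over all genes, where 1.64% of genes passed. An unadjusted limma p under 0.05 was found for 11.6% of genes. The Rbm3 value stood at the 96.7th percentile of age differences, whose median was -0.01. Exchanging the age labels within each time in all 46656 ways (exact permutation test, two-sided) gave an unadjusted p of 0.0215 for Rbm3 and 0.481 for Cirbp.

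The mean of Rbm3 was higher in old at 6 of 6 times, which 4.56% of tested genes shared, with ratios of group means from 1.15 to 1.52. The libraries of the ages overlapped at every time except ZT10, where old had 34.03 and 32.3 and young 24.04 and 23.2 scaled TPM. At ZT10, 16.1% of genes had both old libraries above both young ones. The log2 differences ran from 0.27 at ZT14 to 0.66 at ZT2, with limma adjusted p from 0.916 to 1. Over the 24 fits without a library the value over the day was 0.31 to 0.52 and over 13 other settings 0.40 to 0.52, with limma adjusted p from 0.116 to 0.545.

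Cirbp was higher in old at 4 of 6 times. Its libraries did not overlap at ZT2 (10.8 and 11.8 in young, 13.2 and 17.2 in old) and ZT14 (5.12 and 5.46 in young, 7.76 and 8.89 in old), as for 16.5% and 15.1% of genes. The difference at ZT14 was log2 0.60 (interval -0.01 to 1.22, limma adjusted p = 0.633), and 0.29 to 0.97 over 12 other settings. At ZT10 and ZT22 it was lower in old, by -0.38 and -0.34, with limma adjusted p of 0.877 and 1. In whole liver, fewer cells of a type and less RNA per cell cannot be told apart.

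Markers of blood and immune cells differed between the ages in these libraries, beside the Rbm3 values. The 4 plasma cell markers summed to 11.4 to 57.6 scaled TPM in young and 116 to 641 in old, and 3 of 3 tested rose, as did 1.14% of all genes. The 4 neutrophil markers summed to 2.27 to 22.5 and 2.63 to 121, with 2 of 2 tested higher and 1 of the 4 at 0 in all libraries. Of 6 Kupffer cell (liver macrophage) markers 1 passed, Marco, a scavenger receptor, which averaged 6.24 scaled TPM in young libraries and 28.5 in old ones, and their sum was 215 to 288 and 211 to 650. Of 5 bile duct cell markers 2 were tested and Sox9, a transcription factor, rose by log2 0.45 (limma adjusted p = 0.0305). None of the tested markers of hepatocytes (6), endothelial cells (5), stellate cells (5) or acinar cells (6) passed. Their part in the Rbm3 values was not tested.

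**Figure D3:**
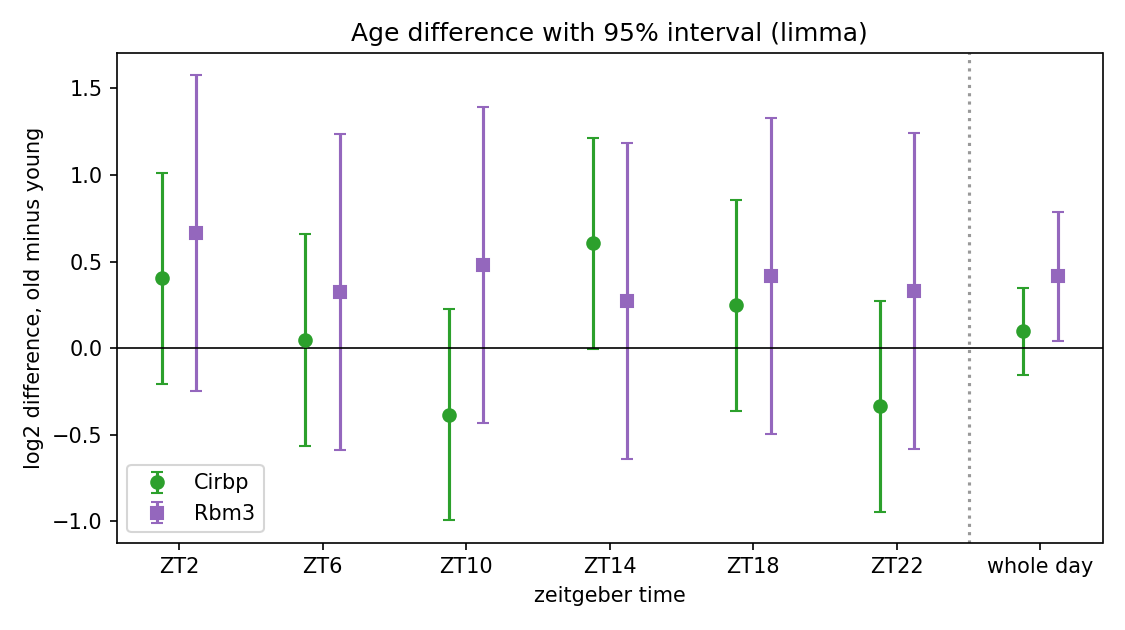
Log2 difference of old minus young for Cirbp (green circles) and Rbm3 (purple squares) at each zeitgeber time and over the whole day, with 95% intervals from limma. The whole-day interval of Rbm3 runs from 0.04 to 0.79 and that of Cirbp from -0.15 to 0.35, and neither passed after adjustment over all genes.

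Genes with time courses most like those of the members were ranked by Pearson r over the 24 libraries among 7009 genes with at least 5 scaled TPM, leaving out predicted genes and clone names. These are descriptions, and all genes share the libraries and the 6 times. Both members were rhythmic, so ranking by r favours rhythmic genes with a like or an opposite peak. Rhythm calls and peak hours of the ranked genes are therefore no separate evidence. Most like Cirbp was Inca1, an inhibitor of cyclin-dependent kinases (r = 0.893, amplitude log2 1.42, peak ZT5.85). Agxt, the peroxisomal aminotransferase that detoxifies glyoxylate, followed at r = 0.892 with a peak at ZT5.37. The translation factors Eef2 (elongation, r = 0.87) and Eif4b (initiation, r = 0.864) came next, with amplitudes of 0.44 and 0.95. Gabarapl1, of the ATG8 family on autophagosomes, had r = 0.861 and an amplitude of 1.504 at 226 scaled TPM. Amdhd1, of histidine breakdown (0.859), Mta1, of the NuRD chromatin complex (0.844), and Casp6, a caspase (0.838), completed the 8. All 8 had a peak between ZT4.23 and ZT6.49, and all 8 passed the rhythm test over both ages.

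The genes most opposite to Cirbp were largely chaperone genes. Chordc1, a partner of HSP90, had the lowest r, -0.932 (-0.959 in young and -0.89 in old), with an amplitude of 1.37 and a peak at ZT17.4. Hsph1, an HSP110 chaperone, had an r of -0.878 and an amplitude of 2.43. The HSP90 cochaperones Ahsa1, which activates its ATPase, and Stip1, which links it to HSP70, were at -0.878 as well. The remaining gene of the 5, Agmo, which cleaves ether lipids, had r = -0.888. Their peaks lay between ZT17.4 and ZT18.7.

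For Rbm3 the predicted genes left out included its pseudogene Gm15453, at r = 0.861. Among the genes ranked, Etnk2, an ethanolamine kinase of phospholipid synthesis, came first at r = 0.777 with a peak at ZT11.9. Camk2n1, an inhibitor of the kinase CaMKII, followed (0.772), then Mat2a, which makes S-adenosylmethionine (0.743, amplitude 0.74, peak ZT11.7). The PAR bZIP transcription factors Tef (0.734, amplitude 2.96, peak ZT12.3) and Dbp (0.719, amplitude 5.84, peak ZT10.5), direct outputs of the clock, were among the 8. The others were Hoga1, of hydroxyproline breakdown (0.733), Clec1b, the C-type lectin CLEC-2 (0.708), and Stbd1, which binds glycogen (0.705). Their peaks lay between ZT9.02 and ZT12.3.

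Genes opposite to Rbm3 had their peaks around lights on. Pxmp4, a peroxisomal membrane protein (r = -0.773, peak ZT23.2), and Slc16a1, the lactate transporter MCT1 (-0.772, peak ZT22.5), were lowest. Cmtm6, a membrane protein that stabilises PD-L1 (-0.758), Zfyve1, a lipid-binding FYVE protein (-0.753), and Slc22a28, of the organic anion transporter family (-0.752), followed. Each member ranked far down in the other's list: Rbm3 was 2299th of 7009 for Cirbp and Cirbp 2053rd for Rbm3, with r = 0.15 over the 24 libraries. With no gene left out, Gm15453 ranked 2nd of 12260 for Rbm3.

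**Figure D4:**
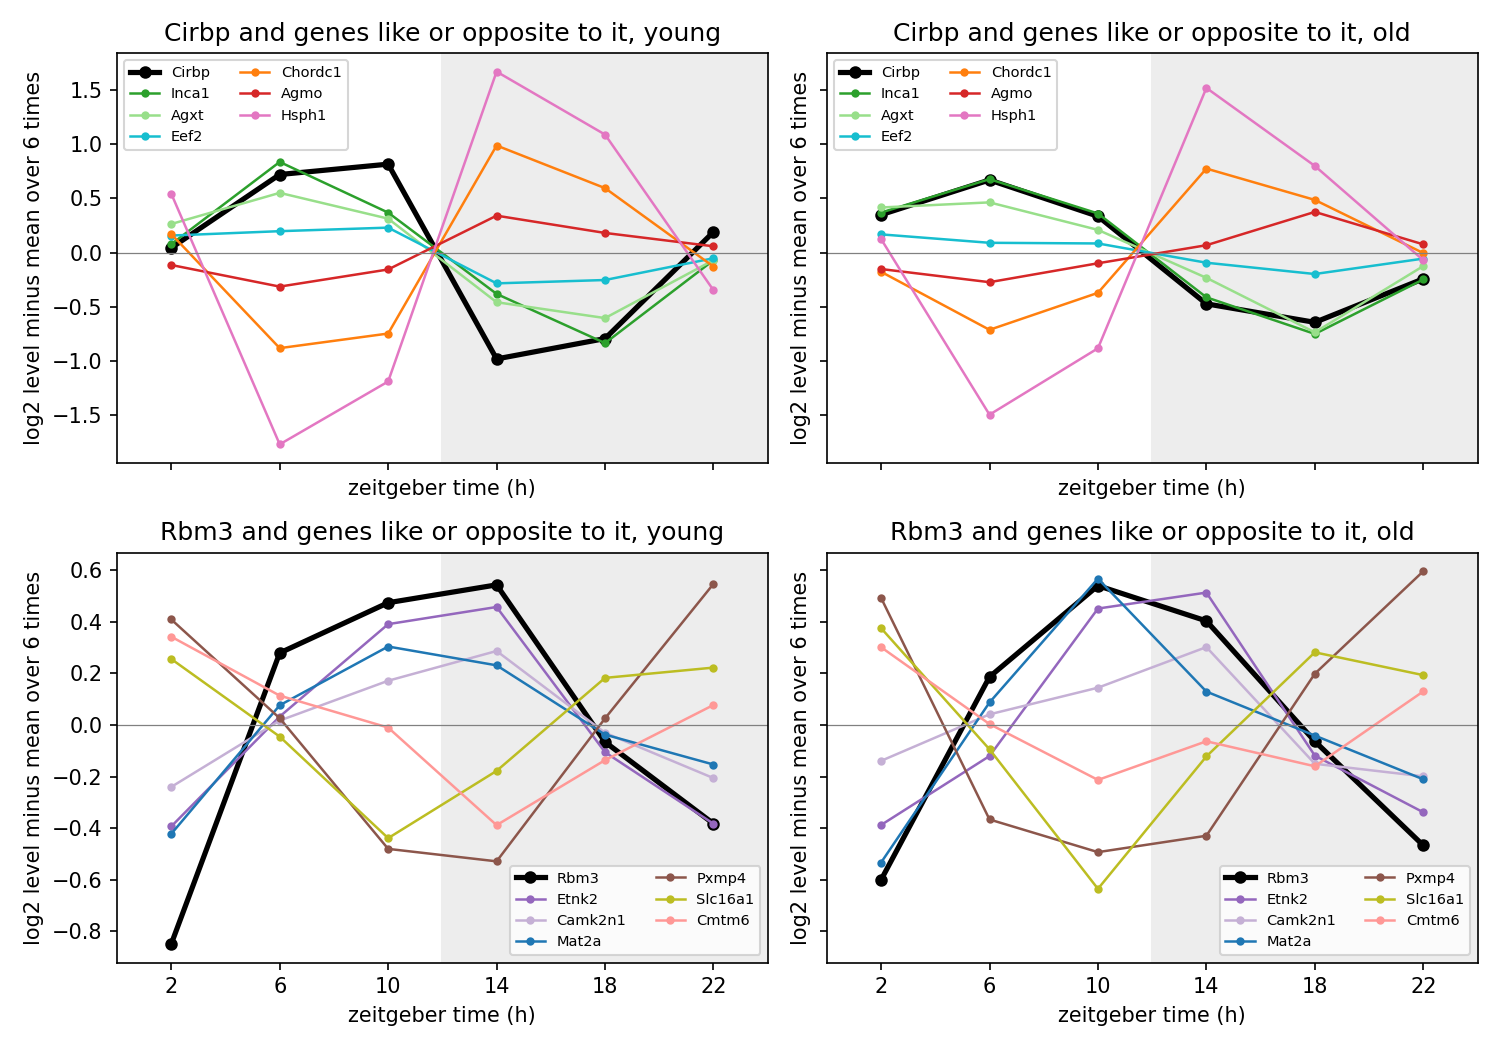
Log2 group mean minus the mean over the 6 times against zeitgeber time in hours, for Cirbp (top) and Rbm3 (bottom) in black with the 3 genes most like and the 3 most opposite to each, in young (left) and old (right). Chordc1 and Hsph1 rise from ZT10 to ZT14 where Cirbp falls, and Etnk2 and Mat2a follow Rbm3.

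Heat shock chaperones, induced by warmth, were taken as a list of 20 tested genes. Of these 19 passed the rhythm test over both ages, against 23.9% of all genes, and all 19 peaked in the dark, between ZT14.3 and ZT19.4 with a median of ZT17.4. Over all rhythmic genes 49.6% peaked before ZT12. Within an age, 11 of the 20 chaperones passed in young and 10 in old, where 10.7% and 8.96% of all genes did. Hspa1b and Hspa1a, the inducible HSP70 genes, had amplitudes of log2 2.69 and 2.54, Hspb1, a small heat shock protein, 2.49, and Hsph1 2.43. Hspa1b and Hspa1a did not pass within either age (limma adjusted p from 0.120 to 0.137). In young, Hspa1b averaged 41.3 scaled TPM at ZT14 and 4.11 at ZT18, its next highest time. Each of the 20 was negatively correlated with Cirbp over the 24 libraries (r from -0.932 to -0.559, median -0.781), where 49.9% of all genes were. With Rbm3, 13 of the 20 were negative (r from -0.386 to 0.315, median -0.125), where 49.5% of all genes were. Nearly all of the list was rhythmic, so these correlations restate its peak hours and are no separate evidence. The Rbm3 peak at ZT11.7 lay between the Cirbp peak at ZT5.51 and the chaperone peaks.

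Among RNA-processing genes the rhythms were mixed, and 23.9% of all genes passed the test over both ages. Of 8 CLK and SRPK kinases, which phosphorylate SR proteins, 2 passed over both ages, Clk4 (amplitude log2 0.39, peak ZT13.4) and Clk3 (0.36, peak ZT22.0), and 1 passed with 6 of the other settings. The kinase count is near the share of all genes and ran from 0 to 2 over the 24 fits without a library. Of 12 SR splicing proteins 6 passed. Tra2a was widest (1.47, peak ZT20.3), followed by Srsf5 (0.97, peak ZT4.57), Srsf2 (0.65, peak ZT16.6) and Srsf3 (0.58, peak ZT17.1). Srsf5 was the one of these 4 with a peak in the light. Of 19 hnRNP and related proteins, which coat nascent RNA, 8 passed. Tardbp, encoding TDP-43, had an amplitude of 0.97 and a peak at ZT22.5. Hnrnpdl (0.71, peak ZT8.09) and Hnrnpd (0.63, peak ZT9.19) followed.

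**Figure D5:**
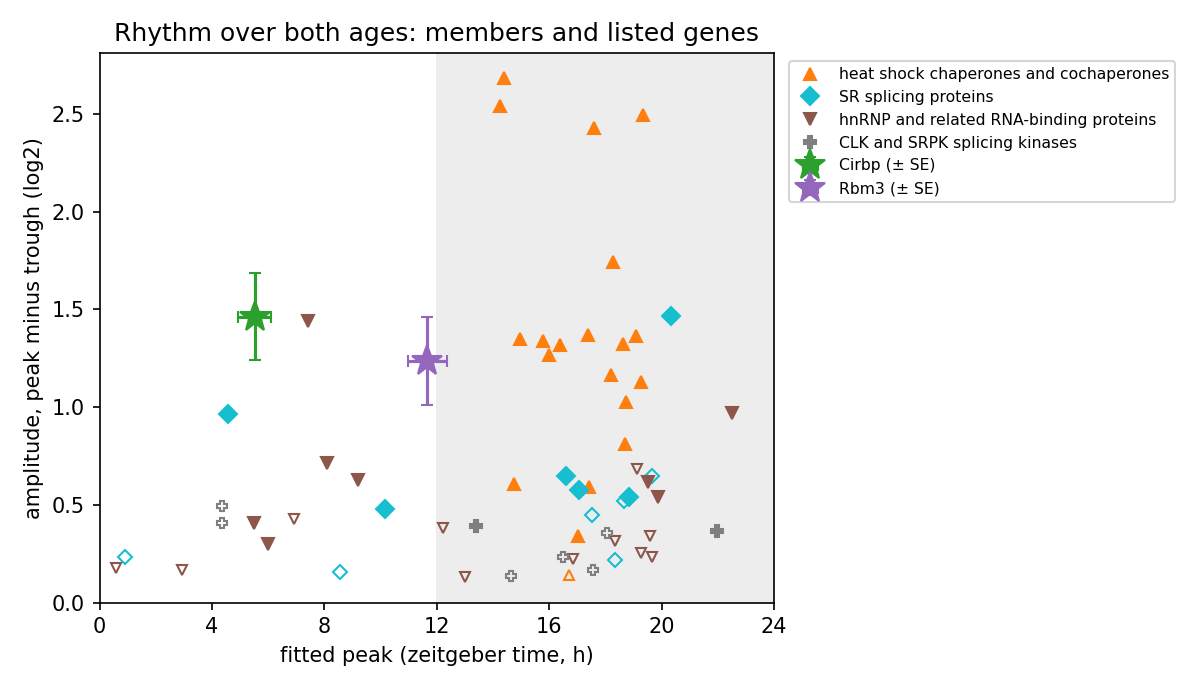
Amplitude (log2 peak minus trough) against the fitted peak hour over both ages for Cirbp and Rbm3 (stars with SE) and for the listed chaperones, SR proteins, hnRNP proteins and CLK or SRPK kinases; filled symbols passed the rhythm test and open ones did not. Filled chaperone symbols lie between ZT14.3 and ZT19.4, while Cirbp lies at ZT5.51 and Rbm3 at ZT11.7.

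The lists of genes that act upstream or downstream of the members are short, and their counts are given beside the 23.9% of all genes that passed the rhythm test over both ages, with no difference from it tested. Of 6 tested genes reported to regulate them (Sp1, Hsf1, Hsf2, Hif1a, Creb1 and Plcg1), 1 passed the rhythm test, Plcg1, a phospholipase C (amplitude log2 0.83, peak ZT10.3). Sp1, the GC box factor, averaged 5.68 scaled TPM in young libraries and 5.78 in old ones, and its limma adjusted p for rhythm was 0.696. For Hsf1, the heat shock factor, that p was 0.815. Of 5 transcripts reported as targets of CIRBP or RBM3, 1 passed, Clock, a core clock activator (amplitude 1.36, peak ZT23.3). The stress granule list, of proteins that join CIRBP in granules under stress, had 2 of 7, Caprin1 (0.93, peak ZT22.2) and Pabpc1 (0.45, peak ZT7.78). Of 4 tested genes for sensing extracellular CIRBP (Tlr4, Ly96, Cd14 and the adaptor Myd88), none passed over both ages at the adjusted limma threshold. On coverage 1 of them did. Within old, Cd14, a coreceptor of TLR4, passed (amplitude log2 1.35, limma adjusted p = 0.0243). The clock genes used as a phase reference all passed, 14 of 14, with a median amplitude of 3.05.

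With age, none of the genes in these 9 lists passed the test over the day, which 1.64% of all genes passed. At that share, lists this short can hold none, so the count does not set them apart. The median old minus young log2 difference was -0.11 for chaperones, -0.04 for CLK and SRPK kinases, -0.04 for SR proteins, 0.05 for hnRNP proteins and 0.06 for stress granule proteins, against -0.01 over all genes. By sign, 6 of 20 chaperones, 2 of 8 kinases, 4 of 12 SR proteins and 15 of 19 hnRNP proteins were higher in old. These sign counts were not tested, and with a median of -0.01 over all genes both signs were common.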

How the data were processed

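Values come from 24 liver libraries. Per the labels' protocols, oligo-dT selected mRNA gave strand-specific single reads of 50 bases, and per the submitters' processing notes HISAT2, GRCm38 and StringTie were used, with no versions. The annotation is not given in the sources used here. The authors deposited mean coverage per base (a signal not scaled for depth), FPKM and TPM per gene.

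Entries of one gene identifier were added up, and libraries were brought to a common scale by the median of ratios of the 13270 genes detected in each of them. Genes averaging 1 TPM or more were kept, and log2(TPM + 0.5) went into limma 3.58.1 (R 4.3.3, trended empirical Bayes), so fold changes of low values are understated. Differences came from a model of the 12 groups and rhythms from a cosine model per age, with 12 and 18 residual degrees of freedom. A call needed an adjusted p (Benjamini-Hochberg over all 12261 genes) under 0.05. The fits were tested on simulated data. Depth per library is the largest ratio of coverage to FPKM, and reads behind a member are its coverage times exon length over 50; no counts were in the files, so no counting interval is given. Python 3.11.15 and matplotlib 3.10.9 drew the plots.

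The members, gene lists and marker lists were chosen with earlier results of these data known. Of 140 list entries, 137 matched by name, 2 by a GENCODE M21 symbol and 1 (Bmal1, an alias of Arntl) had no match of its own. Beside the members, the genes named were the 8 most like and 5 most opposite to each by Pearson r, and from each list up to 4 with the largest amplitude past the rhythm threshold and any past the age threshold. Genes of the regulator and receptor lists and the pseudogene are named outside that rule, after their values were seen. Not every clock gene tested is named, and 1 gene that the rule would name is not reported here. Alternatives were unscaled TPM and FPKM, quantile normalization, other pseudocounts and filters, a replicate block, array weights, an exact permutation, leaving out libraries and, added after seeing the data, coverage and the pseudogene sum.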

Additional observations from a re-analysis of the deposited data

Results flagged for a closer look

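Gm15453, the pseudogene copy of Rbm3, lies outside the comparisons and had a signal in all 24 libraries, with a mean of 7.95 scaled TPM (6.66 ± 2.89 in young and 9.24 ± 3.39 in old, SD, n = 12 each). At most 16.9 and at least 2.73 scaled TPM were listed, on an estimated 7.85 to 54.6 reads per library. Its rhythm over both ages had an amplitude of log2 1.25 and a peak at ZT11.9 (limma adjusted p = 0.000325), and its age difference was 0.49 (SE 0.135, limma adjusted p = 0.0958). Reads from Rbm3 and from the copy can be the same over most of its length, and their origin was not tested.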

How the results depend on the processing

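Under 12 other settings and 24 fits without a library each, Cirbp kept its fall in the dark at both ages, and its rhythm in young and over both ages, past the threshold, as did Rbm3 its rhythm over both ages. Depth limits these values, as no read counts were given. Causes of the changes below were not tested.

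With unscaled TPM the rhythm of Rbm3 in old passed (amplitude 1.39, limma adjusted p = 0.0128), its dark minus light value in young became -0.087, and its steps from ZT10 to ZT14 became -0.19 in young and 0.031 in old; 338 genes passed for dark minus light in old (519 before) and 514 for variation over times in young (841 before). The median age difference of all genes moved to 0.09 there. With FPKM the 3 Rbm3 values in that order were 1.28, -0.0076 and -0.056. The old rhythm of Rbm3 also passed with quantile normalization (1.18), a filter at 5 TPM (1.17) and the pseudogene added (1.22). Without a filter the variation of Cirbp in old (1.31, limma adjusted p = 0.0605) and the rhythm of Rbm3 in young (1.30, 0.0518) were lost, as was the former without both libraries that stand apart (1.31, 0.0987). On coverage, dark minus light of Rbm3 in old became 0.10, its step in old 0.080, and the correlations of the members -0.092 in young and -0.0605 in old. The exact permutation gave the Rbm3 age difference of 0.41 an unadjusted p of 0.0215, beside an unadjusted limma p of 0.0315. It has no value adjusted over all genes, so it changes no call.

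Counts of genes moved too. Variation of the age difference over times (2 genes) gave 1 with quantile normalization, 1 with a pseudocount of 0.1, 17 with no filter and 0 with a filter at 5 TPM. Rhythm differences (0 genes) gave 2 with quantile normalization, 1 with the filter at 5 TPM and 4 without both libraries, where 315 genes passed for dark minus light and 423 (693 before) for variation over times, both in old. The filter at 5 TPM left 116 age calls. Array weights gave 2216 genes rhythmic in young (1316 before).

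The series describes collection over 2 days, but the labels do not tie the replicate number to a day, so the numbers were not taken as pairs. Deviations of same-numbered libraries correlated over 0.1 in 52 of 66 pairs of groups (lowest -0.158, median 0.186), with a positive mean in 11 of 12 groups. With the replicate number as a block, the rhythm of Rbm3 in old passed (1.17, limma adjusted p = 0.0434), age calls went to 353, dark minus light to 1633 in young and 889 in old, and variation over times to 1533 and 1217. No other call on the members changed.

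Without 1 library at a time, ranges were 1.14 to 1.74 for variation of Cirbp in old, 1.17 to 1.55 for its rhythm in old, 0.996 to 1.64 for the rhythm of Rbm3 in young and 1.04 to 1.25 in old. Direction turned for Rbm3 dark minus light (-0.15 to 0.28 in young, -0.21 to 0.038 in old, -0.36 to 0.067 for old minus young), its amplitude difference (-0.47 to 0.18) and its step from ZT10 to ZT14 (-0.41 to 0.55 in young, -0.28 to 0.00358 in old). It turned for age differences of Rbm3 at ZT6 (-0.00467 to 0.65), ZT14 (-0.20 to 0.75) and ZT22 (-0.31 to 0.97) and of Cirbp at ZT6 (-0.24 to 0.33) and ZT18 (-0.18 to 0.67). Correlations of the members ran from -0.026 to 0.351 in young and 0.0405 to 0.304 in old. Counts ran from 440 to 1060 (young) and 305 to 611 (old) for dark minus light, 494 to 941 (young) and 478 to 709 (old) for variation over times, 0 to 36 for variation of the age difference and 0 to 3 for rhythm differences.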
